A study of Homo sapiens with 26 samples.

Results

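The genes described here carry a name of ZNF and a number, lie on any chromosome other than 19, and stand in at least 1 of the expression tables of a study of ZBTB24 and DNMT3B in HCT116, a human colorectal cancer cell line. The assembled annotation (hg19) names 299 such genes, and 80 of them were listed. The tables list 6035 gene symbols in all, of the 26313 gene names in the annotation. The tables hold only the loci their authors kept, by fold change and in part by p, so the level of an unlisted gene is not known here. Of the 80 genes, 59 were listed in 1 comparison, 19 in 2 and 2 in 3.

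The RNA libraries came from HCT116 cells that carried a lentiviral hairpin against ZBTB24 (shZBTB24, 3 libraries) or a non-targeting hairpin (shNT, 3), from lines that stably carried FLAG-tagged ZBTB24 (FLAG-ZBTB24, 2) or the tag alone (FLAG-only, 2), and from 1 DNMT3B knockout library and 1 wild-type library. Puromycin was used to select cells that carried a lentivirus, and each FLAG line is a clone, so a difference between clones cannot be told apart from the effect of the construct. For ChIP-seq with a FLAG antibody there were 3 libraries of FLAG-ZBTB24 cells, 2 of FLAG-DNMT3B cells and 2 of cells with the tag alone, with an input for each. The deposited tables hold 1 pooled FPKM value (fragments scaled to transcript length and to library size) for each group, so no value below has an error between libraries, and the depth behind it is unknown.

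Genes of this name encode proteins with C2H2 zinc fingers, small folds that hold a zinc ion and read DNA. Many of them also carry a KRAB domain, which recruits the corepressor TRIM28 and through it histone methylation that silences retroelements and other targets. They often lie in clusters of related copies, the largest of which are on chromosome 19. ZBTB24 is itself a zinc finger transcription factor, and DNMT3B adds methyl groups to DNA, often within transcribed genes. Mutations of either gene cause the immunodeficiency, centromeric instability and facial anomalies (ICF) syndrome.

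RefSeq promoter windows of GRCh38.p14, which run from 250 bases before a transcript start to 50 after it, were found for 65 of the 80 genes, with 83 windows in all. ZNF79 and ZNF248 encode KRAB zinc finger proteins, and windows of both are shown because a ZBTB24 peak lay near a start of each. RefSeq gives 3 starts for ZNF248, and the window shown is that of the start farthest inside the gene, since the peak lay inside the gene from its 5′ end. The third gene with such a peak, ZNF516, is not shown, because its peak centre was 694 bp from the nearest annotated start, farther than a window of this length reaches from that start. Capitals mark a match to CAGGACCT, a motif reported for ZBTB24, or to CCGGAAGT, a motif of the ETS factors. The ZNF248 window holds neither. Its peak centre was 142 bp from the nearest annotated start in hg19, and the peak was not placed on the GRCh38.p14 window. A window reaches only 50 bases past its start, so the ZNF248 peak may lie outside the window shown.
ZNF79 (GRCh38.p14 chr9:127424132-127424431, + strand): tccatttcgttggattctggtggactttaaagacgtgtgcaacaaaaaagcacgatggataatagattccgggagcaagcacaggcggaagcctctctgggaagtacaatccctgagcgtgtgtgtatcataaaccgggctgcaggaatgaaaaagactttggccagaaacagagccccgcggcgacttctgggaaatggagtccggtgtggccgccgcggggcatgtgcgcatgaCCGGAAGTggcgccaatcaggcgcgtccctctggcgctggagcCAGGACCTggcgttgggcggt
ZNF248 (GRCh38.p14 chr10:37857561-37857860, - strand): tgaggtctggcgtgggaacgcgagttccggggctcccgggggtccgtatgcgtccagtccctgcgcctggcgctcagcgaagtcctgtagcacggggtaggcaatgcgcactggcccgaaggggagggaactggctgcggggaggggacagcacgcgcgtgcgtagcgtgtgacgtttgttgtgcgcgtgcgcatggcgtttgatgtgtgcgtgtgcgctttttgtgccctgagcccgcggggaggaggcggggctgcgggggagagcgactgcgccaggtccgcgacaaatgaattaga

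The next sequences run from 50 bases before to 50 bases after the start of the 5 genes that rose in shZBTB24 cells, and are shown so that their starts can be compared. RefSeq gives 3 starts for ZNF655, and the stretch of the first is shown. Capitals mark CCGGAAGT.
ZNF655 (GRCh38.p14 chr7:99558592-99558691, + strand): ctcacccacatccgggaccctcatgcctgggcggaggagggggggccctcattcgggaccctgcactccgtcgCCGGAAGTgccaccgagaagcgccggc
ZNF107 (GRCh38.p14 chr7:64666083-64666182, + strand): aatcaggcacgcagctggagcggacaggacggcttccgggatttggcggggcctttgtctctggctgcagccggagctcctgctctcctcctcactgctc
ZNF782 (GRCh38.p14 chr9:96854465-96854564, - strand): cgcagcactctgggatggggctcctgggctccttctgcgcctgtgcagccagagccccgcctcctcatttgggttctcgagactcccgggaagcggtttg
ZNF594 (GRCh38.p14 chr17:5191819-5191918, - strand): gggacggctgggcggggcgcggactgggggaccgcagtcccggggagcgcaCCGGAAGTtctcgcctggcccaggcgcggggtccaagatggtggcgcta
ZNF622 (GRCh38.p14 chr5:16465751-16465850, - strand): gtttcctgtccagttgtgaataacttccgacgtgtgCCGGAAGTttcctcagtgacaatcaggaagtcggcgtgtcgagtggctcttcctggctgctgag
CCGGAAGT was present in the stretches of ZNF655, ZNF594 and ZNF622, and CAGGACCT in none of the 5. The stretches around the other ZNF655 starts hold no CCGGAAGT.

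In shZBTB24 cells, the listed zinc finger genes off chromosome 19 mostly had higher values than in shNT cells. The authors' deposited table lists 42 loci of 44 of these genes, 32 with a higher and 10 with a lower value in shZBTB24 cells. That is 76.2% higher, against 55.0% of all 1965 loci in that table. At a q under 0.05, the authors' adjusted p, 5 loci rose and none fell. The 5 make up 11.9% of the 42, while 12.2% of all listed loci rose and 9.82% fell at that threshold, so the share that rose lay near that of the table as a whole. The table was filtered before deposit, and most of its loci have an unadjusted p under 0.05. At that level 31 of the 42 loci were higher and 8 lower, and over all loci 53.5% were higher and 43.5% lower. The median log2 fold change was 0.75 for these loci and 0.55 for all, with a range of -1.17 to 1.80.

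ZNF655, which encodes a partner of the signalling protein VAV1, stood at 22.4 FPKM in shZBTB24 cells and 8.91 FPKM in shNT cells in the authors' deposited table (q = 0.00493 at a log2 fold change of 1.33). Its locus spans hg19 chr7:99155372-99174076. The authors' deposited table gave ZNF107, at hg19 chr7:64126461-64171960, 8.69 FPKM in shZBTB24 cells and 2.81 FPKM in shNT cells (log2 fold change 1.63, q = 0.00493). These 2 genes had the lowest q of the set. ZNF782, a KRAB zinc finger gene at hg19 chr9:99579273-99616389, was low in both groups. The authors' deposited table put it at 1.23 FPKM in shZBTB24 cells and 0.353 FPKM in shNT cells, and its log2 fold change of 1.80 was the largest of the 42 loci (q = 0.0164). ZNF594, at hg19 chr17:5082642-5095178, was lower still, with 0.729 FPKM in shZBTB24 cells and 0.245 FPKM in shNT cells in the authors' deposited table (q = 0.0404 at a log2 fold change of 1.58). ZNF622, which is related to a yeast factor that matures the large ribosomal subunit and is no KRAB gene, was the highest of the 5. In the authors' deposited table it had 24.4 FPKM in shZBTB24 cells and 14.4 FPKM in shNT cells (log2 fold change 0.76, q = 0.0479), and its locus is hg19 chr5:16451628-16465894.

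Other genes, among them the KRAB genes ZNF124, ZNF26 and ZNF37A, had higher values that did not pass the adjusted threshold. ZNF124 was at 2.66 FPKM in shZBTB24 cells and 1.01 FPKM in shNT cells in the authors' deposited table (q = 0.0719 at a log2 fold change of 1.39). ZNF26 was at 2.25 FPKM in shZBTB24 cells and 0.983 FPKM in shNT cells in the same authors' deposited table (q = 0.157). ZNF37A, which has a close copy in ZNF37BP, was at 6.94 FPKM in shZBTB24 cells and 3.07 FPKM in shNT cells by the authors' deposited table (q = 0.157). How reads were split between such copies is not stated. The authors' deposited table also held ZNF502 at 1.06 FPKM in shZBTB24 cells and 0.368 FPKM in shNT cells (log2 fold change 1.52, q = 0.065) and ZNF239 at 4.03 FPKM in shZBTB24 cells and 1.88 FPKM in shNT cells (log2 fold change 1.10, q = 0.0766). ZNF512 missed the threshold most narrowly, at 17.9 FPKM in shZBTB24 cells and 10.7 FPKM in shNT cells (q = 0.0518 in the authors' deposited table).

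The genes with lower values in shZBTB24 cells included several transcription regulators. Genes were not grouped by KRAB domain, so KRAB genes and others were not compared by direction. The locus shared by ZNF595 and ZNF718 had the lowest log2 fold change, -1.17 (q = 0.345 in the authors' deposited table). It was at 0.26 FPKM in shZBTB24 cells and 0.585 FPKM in shNT cells in the authors' deposited table. ZNF217, an oncogene product that works with the CoREST corepressor complex, was at 13.3 FPKM in shZBTB24 cells and 19.2 FPKM in shNT cells in the authors' deposited table (q = 0.186). ZNF281, a regulator of stem cell and epithelial-mesenchymal genes, was at 9.92 FPKM in shZBTB24 cells and 15.2 FPKM in shNT cells (log2 fold change -0.62, q = 0.128 in the authors' deposited table). ZNF341, an activator of STAT3 transcription, was at 2.43 FPKM in shZBTB24 cells and 4.15 FPKM in shNT cells by the authors' deposited table (q = 0.125 at a log2 fold change of -0.78). None of these lower values passed the adjusted threshold. The authors' deposited table put ZNF488 at a log2 fold change of -0.85 (q = 0.122) and ZNF449, on the X chromosome, at -0.69 (q = 0.214). The locus shared by FOXO3B and ZNF286B was at -0.83 in the authors' deposited table, and its reads cannot be given to either gene. It is 1 of 5 loci among the 42 that carry more than 1 symbol.

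The loci of these genes listed for shZBTB24 had lower levels than all loci listed there. By the authors' deposited table, the 42 loci had a median level of 3.99 FPKM in shZBTB24 cells and 3.08 FPKM in shNT cells, against 8.69 FPKM in shZBTB24 cells and 8.07 FPKM in shNT cells over all listed loci. In shNT cells 10 of the 42 loci (23.8%) were under 1 FPKM, and 9.26% of all listed loci were. The number of reads behind values this low is not known. The other comparisons were mixed, by the authors' deposited tables. In FLAG-only lines the 21 loci had a median of 2.33 FPKM, against 3.14 FPKM over all, but 14.3% were under 1 FPKM, against 24.1%. In the wild-type library the median was 1.35 FPKM for the loci under DNMT3BKO, against 0.695 FPKM over all under that label. For DNMT3BKOshZB it was 4.44 FPKM, against 10.6 FPKM.

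**Figure D1:**
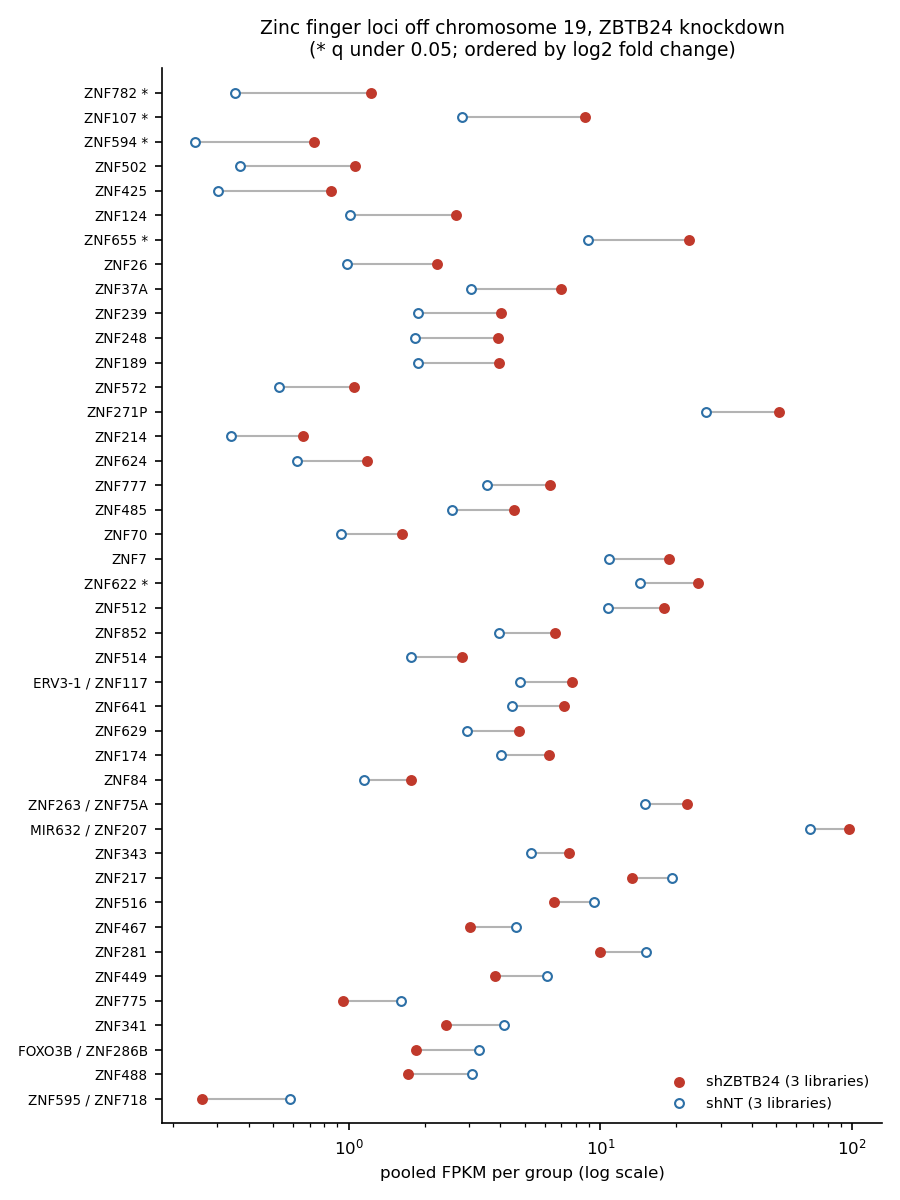
Pooled FPKM of each zinc finger locus off chromosome 19 in shZBTB24 cells and in shNT cells, on a log axis. The 32 loci with a higher and the 10 with a lower value are shown, and the 5 that passed a q under 0.05 are all higher.

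Most of the listed genes had lower values in FLAG-ZBTB24 lines. Of 21 loci listed there, 6 were higher and 15 lower than in FLAG-only lines, that is 28.6% higher, while 47.3% of the 1754 loci that the authors' deposited table holds were higher. None passed a q under 0.05, and none had an unadjusted p under 0.05 by the authors' test. Over all loci 0.228% rose and 0.342% fell at the adjusted threshold, and 3.48% were higher and 6.44% lower at the unadjusted one. The median log2 fold change was -0.61 for these loci and -0.51 for all. The locus of MICAL1 and ZBTB24, the added gene, was at 155 FPKM in FLAG-ZBTB24 lines and 17.8 FPKM in FLAG-only lines in the authors' deposited table (q = 0.0192 at a log2 fold change of 3.12). ZBTB24 was not listed in the shZBTB24 table, so the knockdown of its own RNA could not be checked here.

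ZNF503, a corepressor of the NET family with a role in tissue growth, had the lowest p of the 21 loci. The authors' deposited table gave it 8.92 FPKM in FLAG-ZBTB24 lines and 16.1 FPKM in FLAG-only lines (log2 fold change -0.85, p = 0.0578, q = 0.621). Its antisense gene ZNF503-AS1, in the same interval, was at 2.27 FPKM in FLAG-ZBTB24 lines and 1.44 FPKM in FLAG-only lines by the authors' deposited table. Whether the counting used strand is not given, so these 2 values may share reads. The KRAB gene ZNF248 had the lowest log2 fold change, -0.94, at 2.28 FPKM in FLAG-ZBTB24 lines and 4.38 FPKM in FLAG-only lines in the authors' deposited table (q = 0.84). ZNF84 followed at -0.89 (q = 0.749) and ZNF688 at -0.87 (q = 0.997) in the authors' deposited table. ZNF33B was at 4.02 FPKM in FLAG-ZBTB24 lines and 6.55 FPKM in FLAG-only lines in that authors' deposited table. Among the 6 with higher values, ZNF684, ZNF789 and ZNF425 had log2 fold changes of 0.55, 0.58 and 0.62 in the authors' deposited table, with q of 0.997 each. With 2 clonal lines in each group, no such difference was larger than the spread the authors' test allowed.

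**Figure D2:**
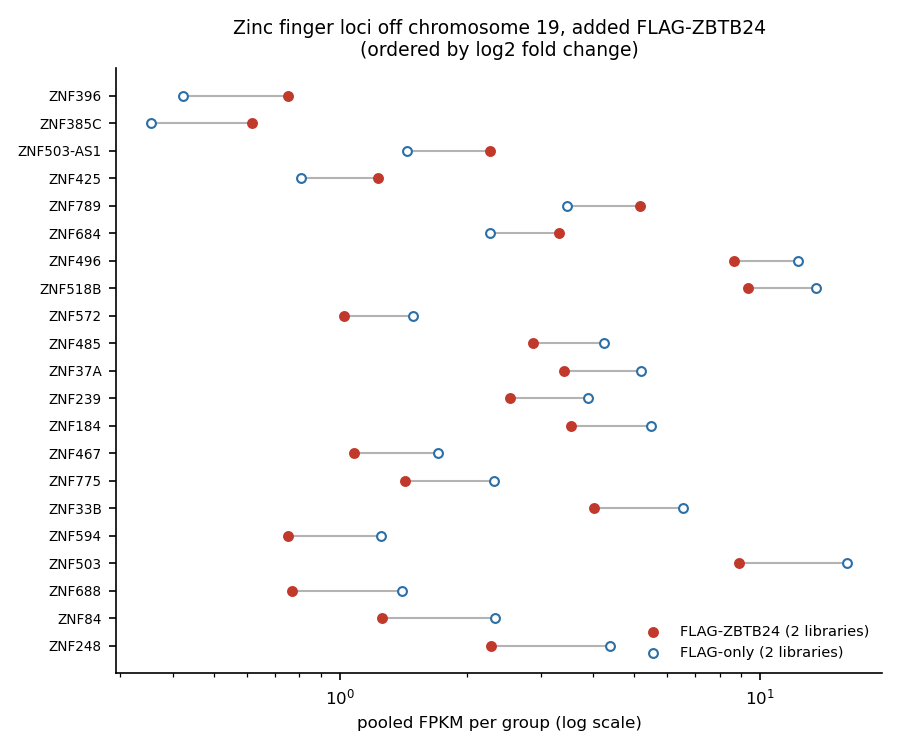
Pooled FPKM of each listed zinc finger locus off chromosome 19 in FLAG-ZBTB24 lines and in FLAG-only lines, on a log axis. The 15 lower loci outnumber the 6 higher ones, and none passed the threshold.

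Some genes were listed in both of these comparisons, which share no libraries. They number 10, which is 22.7% of the 44 genes listed for shZBTB24 and 47.6% of the 21 listed for FLAG-ZBTB24. Over all genes, 403 symbols were shared. On the main chromosomes 2116 gene names were listed for shZBTB24 and 1897 for FLAG-ZBTB24. Whether the shares differ was not tested. Of the 10, 7 were higher in shZBTB24 than in shNT cells and lower in FLAG-ZBTB24 than in FLAG-only lines, and none was the other way round. The 7 are 70.0% of the 10, while 143 of all 403 shared gene symbols (35.5%) had that pattern. Each comparison alone leans the same way for these genes. In shZBTB24 cells 76.2% of the 42 loci were higher, and in FLAG-ZBTB24 lines 71.4% of the 21 were lower. Whether the 2 directions go together gene by gene was not tested. The 7 genes are ZNF37A, ZNF84, ZNF239, ZNF248, ZNF485, ZNF572 and ZNF594. ZNF594 was the only one of them past the adjusted threshold in shZBTB24 cells, and none was past it in FLAG-ZBTB24 lines, so the pattern rests on directions. ZNF248 is an example, at 3.91 FPKM in shZBTB24 cells and 1.83 FPKM in shNT cells (log2 fold change 1.09, q = 0.278 in the authors' deposited table) and at -0.94 in the FLAG comparison. ZNF425 was higher in both comparisons, at a log2 fold change of 1.49 in shZBTB24 cells and 0.62 in FLAG-ZBTB24 lines in the authors' deposited tables. ZNF467 and ZNF775 were lower in both. In the authors' deposited tables ZNF467 was at -0.61 in shZBTB24 cells and -0.67 in FLAG-ZBTB24 lines, and ZNF775 at -0.77 in shZBTB24 cells and -0.70 in FLAG-ZBTB24 lines. These are also the 2 genes listed in 3 comparisons, ZNF467 under the label DNMT3BKOshZB at -1.71 and ZNF775 under DNMT3BKO at 1.64 in the authors' deposited table.

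**Figure D3:**
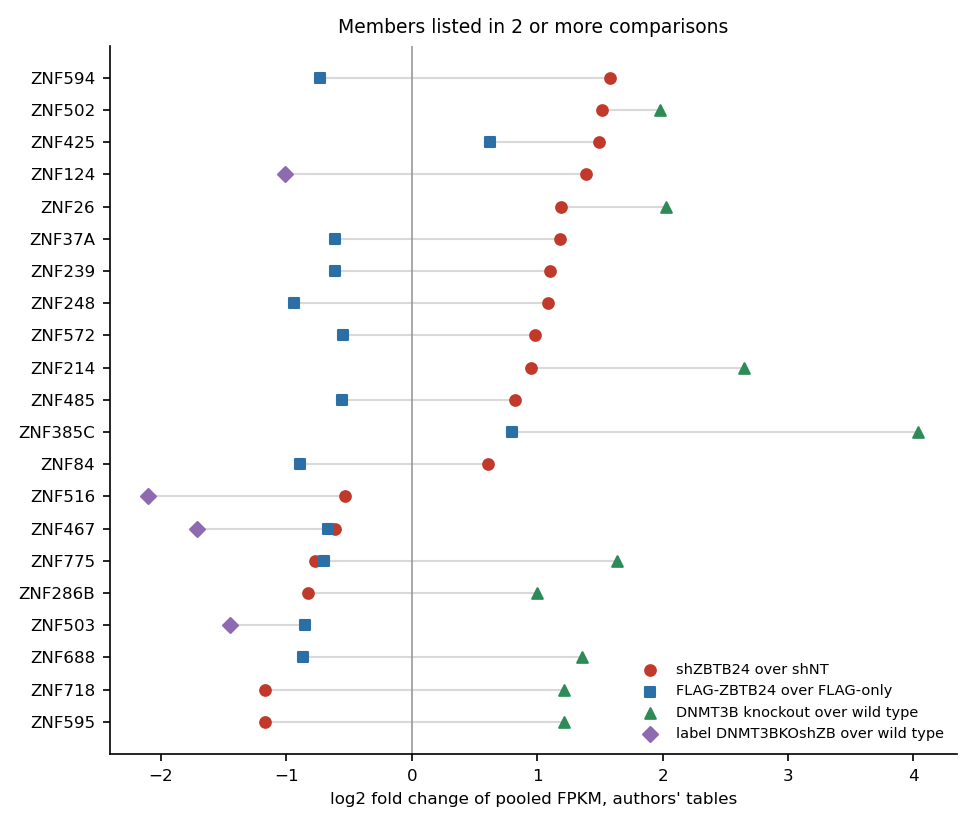
Log2 fold changes of zinc finger genes off chromosome 19 that are listed in more than 1 comparison, each comparison in its own colour and measured against its own control. Of the 10 genes listed for both shZBTB24 and FLAG-ZBTB24, 7 lie above 0 in shZBTB24 cells and below 0 in FLAG-ZBTB24 lines.

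ZNF662 and ZNF501 were expressed in the DNMT3B knockout library and close to 0 FPKM in the wild-type library. The authors' deposited table for the label DNMT3BKO lists higher loci only, 2243 in all, so the direction of its 24 loci of these genes carries no information. With 1 library per group there is no test, and a locus was counted where its log2 fold change was at least 2. That held for 9 of the 24 (37.5%), against 52.8% of all loci under that label, and the median log2 fold change was 1.77 for these loci and 2.12 for all.

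ZNF662, a KRAB gene on chromosome 3, was at 6.24 FPKM in the knockout library and 0.0106 FPKM in the wild-type library in the authors' deposited table (a log2 fold change of 9.20). ZNF501, also on chromosome 3, was at 2.51 FPKM in the knockout library and 0.0195 FPKM in the wild-type library by the authors' deposited table (a log2 fold change of 7.01). Both wild-type values are close to 0, so these fold changes move with any value added before the ratio. ZNF385C was at 15.0 FPKM in the knockout library and 0.914 FPKM in the wild-type library in the authors' deposited table (a log2 fold change of 4.04). ZNF703, a breast cancer oncogene and the close relative of ZNF503, was at 17.3 FPKM in the knockout library and 1.58 FPKM in the wild-type library (log2 fold change 3.46 in the authors' deposited table). These 2 loci differed at levels well above 1 FPKM in the knockout library. The ZNF385C locus spans hg19 chr17:40118759-40250500, and the annotated gene only chr17:40177594-40190044. Its value may thus come in part from transcripts outside the annotated gene. ZNF214, ZNF192P1, a pseudogene, and ZNF280A had log2 fold changes of 2.65, 2.22 and 2.18 in the authors' deposited table. ZNF26, a KRAB gene that was also higher in shZBTB24 cells, was at 6.91 FPKM in the knockout library and 1.70 FPKM in the wild-type library in the authors' deposited table (a log2 fold change of 2.03). ZNF502 was just under the fold threshold at 1.98 in the authors' deposited table, and ZNF747 at 1.90. Of the loci listed for shZBTB24, 6 hold a zinc finger gene off chromosome 19 that was also listed for the DNMT3B knockout, and 3 of the 6 were higher in shZBTB24 cells, against 167 of 379 (44.1%) over all loci with a gene listed in both.

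A second label in that table, DNMT3BKOshZB, matches no sample given here, so what was done to its cells is not known. It lists lower loci only, 1112 in all, and shares its wild-type library with the label DNMT3BKO. Of 13 loci of these genes, 4 (30.8%) had a log2 fold change of -2 or below, against 26.6% of all loci under that label. They were ZNF804A, ZNF680, ZNF711 and ZNF516, and the median log2 fold change was -1.45 for the 13 loci and -1.48 for all. ZNF711, an X-linked gene mutated in intellectual disability, was at 1.03 FPKM under that label and 8.84 FPKM in the wild-type library in the authors' deposited table (a log2 fold change of -3.10). ZNF680, a KRAB gene, was at 0.664 FPKM under that label and 6.51 FPKM in the wild-type library by the authors' deposited table (a log2 fold change of -3.29). ZNF804A, a gene linked to schizophrenia risk, was low in both, at 0.0586 FPKM under that label and 0.857 FPKM in the wild-type library in the authors' deposited table. The other genes of the label were ZNF704 at -1.99, ZNF467 at -1.71, ZNF503 at -1.45, ZNF354B at -1.33, ZNF469, a collagen-related gene, at -1.28, ZNF138 at -1.18 and ZNF774 at -1.10, all log2 fold changes in the authors' deposited table, with ZNF124 and ZNF367 near -1. DNMT3B itself was at 6.46 FPKM under that label and 21.1 FPKM in the wild-type library in the authors' deposited table. It was not listed under DNMT3BKO, which lists higher loci only, so a lower value could not appear there.

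**Figure D4:**
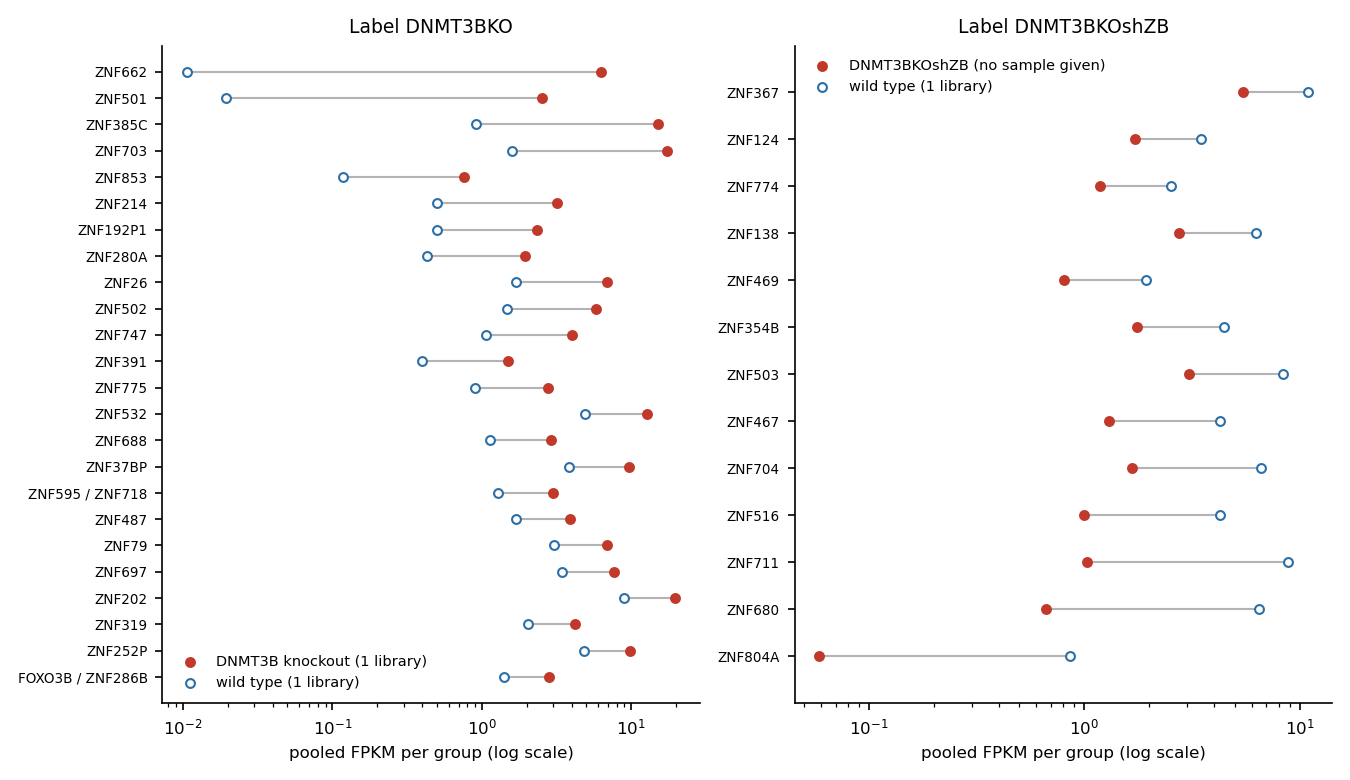
Pooled FPKM of each listed zinc finger locus off chromosome 19 under the labels DNMT3BKO and DNMT3BKOshZB, each against the wild-type library, on log axes. The ZNF662 and ZNF501 loci have the lowest wild-type values, 0.0106 and 0.0195 FPKM.

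The genes were spread over the genome, and some neighbours had values on the same side of their controls while others did not. A cluster was taken as at least 4 ZNF genes with gaps of at most 500 kb. There were 15 clusters off chromosome 19, and 34 of the 80 genes (42.5%) lay in 1 of them, against 110 of all 299 ZNF names off chromosome 19 (36.8%). In shZBTB24 cells 19 of 21 listed loci in a cluster were higher, with 2 past the threshold, and 13 of 21 outside a cluster, with 3 past it. The median log2 fold change was 0.84 inside and 0.68 outside, and the difference was not tested. At hg19 chr10:38065454-38412278, ZNF248 and ZNF37A were both higher in shZBTB24 cells and both lower in FLAG-ZBTB24 lines, and at hg19 chr10:43932574-44170147 ZNF239 and ZNF485 had the same directions. At hg19 chr7:63505821-64866048, ZNF107 rose in shZBTB24 cells and the locus of ERV3-1 and ZNF117 had a higher value (log2 fold change 0.68, q = 0.324 in the authors' deposited table), while ZNF680 and ZNF138 were lower under the label DNMT3BKOshZB. At hg19 chr3:44481262-44778575, ZNF852 and ZNF502 were higher in shZBTB24 cells, and ZNF502 and ZNF501 in the knockout library. The label DNMT3BKO lists higher loci only and DNMT3BKOshZB lower loci only, so neighbours listed there could not differ. In shZBTB24 cells, 76.2% of all 42 loci were higher. At hg19 chr7:148766733-149564568 neighbours did differ. There ZNF425 and ZNF777 were higher and ZNF467 lower in shZBTB24 cells, and in FLAG-ZBTB24 lines ZNF425 was higher and ZNF467 lower. Neighbours that are copies of each other may share reads.

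For comparison, 35 loci of ZNF genes on chromosome 19 were listed for shZBTB24, 33 of them higher, with 3 past the threshold and a median log2 fold change of 0.86. For FLAG-ZBTB24, 28 such loci were listed, 6 higher and 22 lower, and none past the threshold, with 3 of the lower ones at an unadjusted p under 0.05. The difference between the 2 sets of chromosomes was not tested. Of the corepressors and silencing factors that KRAB proteins work with, 6 of 21 names were listed for shZBTB24, 4 higher and 2 lower, and none passed the adjusted threshold of the authors' test. All 6 had an unadjusted p under 0.05, as did 97.0% of all loci in that table. TRIM28, the corepressor that binds KRAB domains, was at 71.4 FPKM in shZBTB24 cells and 108 FPKM in shNT cells in the authors' deposited table (a log2 fold change of -0.59). MPHOSPH8, a subunit of the HUSH silencing complex, was at 0.68 and ATRX, a chromatin remodeller, at 0.61 in the authors' deposited table. Markers of the HCT116 epithelium were all in the annotation, 10 of 10, and 2 of them, CDH1 and CDX2, were past the adjusted threshold in the shZBTB24 table. CDX2, a transcription factor of the intestine, rose to 18.8 FPKM in shZBTB24 cells, against 6.90 FPKM in shNT cells, at a q of 0.00493 in the authors' deposited table. CDH1, the adhesion protein E-cadherin, fell to 23.2 FPKM in shZBTB24 cells, against 46.3 FPKM in shNT cells, at a q of 0.00493 in the authors' deposited table. The label DNMT3BKOshZB lists lower loci only, with 1185 of the 26281 gene names that have a place on the main chromosomes. Of the 10 markers, 5 were listed under it, and their direction carries no information. In the authors' deposited table their log2 fold changes were -2.16 for CDH1, -1.50 for KRT8, -1.24 for CDX2, -1.22 for EPCAM and -1.17 for KRT18, and their part in the zinc finger values was not tested. CDH1 was also listed for FLAG-ZBTB24, at 0.54 (q = 0.967 in the authors' deposited table). No fibroblast marker of 5 was listed in any table, and of 5 blood markers CD68 alone was listed, at a log2 fold change of -2.40 for FLAG-ZBTB24 over FLAG-only (q = 0.967) and of 1.17 for the knockout over the wild type in the authors' deposited tables.

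ZBTB24 peaks at the promoters of these genes were few. A peak of the authors' merged FLAG-ZBTB24 list, which holds 6173 peaks for the 3 libraries together, lay within 1000 bp of a transcript start in 3 of the 80 genes (3.75%), against 3.73% of all gene names. The score of a peak is the authors' own, of a kind that is not stated. ZNF516 had the highest of the 3 scores, 9.73, at hg19 chr18:74206290-74206613, with the peak centre 694 bp from the start and at rank 2019 of the list. ZNF516 was lower in shZBTB24 cells, at 6.51 FPKM, than in shNT cells, at 9.39 FPKM, in the authors' deposited table (q = 0.252). ZNF79 had a peak of score 6.5 at hg19 chr9:130186579-130186740, with its centre 6 bp from the start, and ZNF248 one of score 5.13 at hg19 chr10:38146385-38146459, 142 bp away. Both lay low in the list, at rank 4883 and rank 5969. None of the 5 genes that rose in shZBTB24 cells had such a peak.

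DNMT3B peaks within the gene body were found in 16 of the 80 genes (20.0%), against 25.4% of all 299 ZNF names off chromosome 19, 6.37% of those on it and 23.5% of all gene names. The share was 22.7% of the genes listed for shZBTB24, with 32.2% of all genes listed there, and 4.76% of those listed for FLAG-ZBTB24, with 21.6% of all genes there. It was 16.0% of the genes listed for DNMT3BKO, with 10.3% of all genes there, and 15.4% of those listed for DNMT3BKOshZB, with 32.3% of all. None of these differences was tested. Longer genes can hold more peaks, and the share was not adjusted for length. ZNF512 was the most covered in bases, with 5 peaks over 16100 bp, which is 40.0% of its body. ZNF343 had 12505 bp covered (29.3%), ZNF79 had 10942 bp (52.1%), ZNF496, a SCAN domain gene, 5829 bp (18.5%), and ZNF777, a KRAB gene, 5565 bp (18.8%). Genes with such a peak were found on both sides, at 21.2% of the genes with a higher and 27.3% of those with a lower value in shZBTB24 cells. ZNF512, ZNF343 and ZNF777 had higher values, ZNF777 at 6.31 FPKM, against 3.53 FPKM in shNT cells (q = 0.0673 in the authors' deposited table). ZNF217, with 5407 bp covered (33.7%), ZNF341, with 2723 bp, and ZNF516, with 4499 bp, had lower values, given above for ZNF217 and ZNF341. Of the 5 risen genes, ZNF655 had a DNMT3B peak, at hg19 chr7:99169837-99172593, over 15.3% of its body. ZNF516 and ZNF79 each had both a ZBTB24 peak at the promoter and 2 DNMT3B peaks in the body. They were listed together in no comparison, so their directions cannot be compared. The label DNMT3BKO lists higher loci only, and DNMT3BKOshZB lower loci only. The authors' deposited tables put ZNF516 at a log2 fold change of -0.53 in shZBTB24 cells and of -2.10 for DNMT3BKOshZB. ZNF79 was at 6.92 FPKM in the DNMT3B knockout library and 3.03 FPKM in the wild-type library in the authors' deposited table (a log2 fold change of 1.19).

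**Figure D5:**
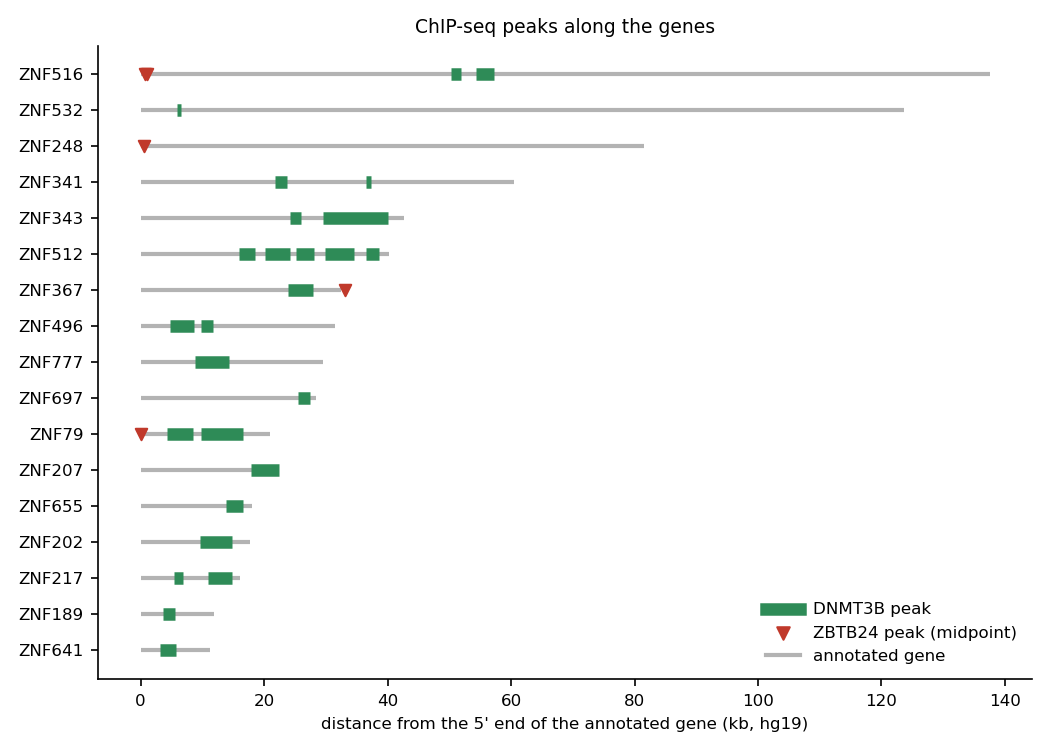
Positions of ChIP-seq peaks along the zinc finger genes off chromosome 19 with a DNMT3B peak in the body or a ZBTB24 peak at the promoter, as distance in kb from the 5' end of each annotated gene (grey line). DNMT3B peaks (green bars) lie inside 16 genes, with 5 of them in ZNF512, and ZBTB24 peak midpoints (red triangles) sit near the start of ZNF516, ZNF79 and ZNF248 and just past the far end of ZNF367.

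The promoters of these genes were rich in CpG. The median window held 24 CpG sites, against 14 over all 35116 RefSeq windows, and 63.0% G and C, against 58.7%. Windows of all ZNF genes off chromosome 19 held a median of 23 CpG sites and those on chromosome 19 held 20. CCGGAAGT, searched on both strands, was in 11 of the 83 windows (13.3%), against 4.14% of all windows and 11.5% of the windows of all ZNF genes off chromosome 19 and 17.6% of those on it. It was in 9 of 36 windows of genes with a higher value in shZBTB24 cells and in none of 8 windows of genes with a lower one. Counted by gene, 7 of the 28 genes with a higher value and a window held it. Windows of 1 gene overlap and share bases, as the 3 windows of ZNF655 do. CAGGACCT was in 1 of the 83 windows (1.2%), that of ZNF79 printed above, against 1.56% of all windows, and GCCATNTT, a motif of YY1, in 6 (7.23%), against 6.58%. These motifs were chosen after the values were known, and a match is a description of the letters and not a bound site. The ChIP peaks are in hg19 and the windows in GRCh38.p14, so the ZNF79 match was not placed within its peak.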

How the data were processed

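RNA-seq and FLAG ChIP-seq of HCT116 cells were used as the authors processed them. Per the submitters' processing notes, HISAT2, StringTie, Cufflinks and MACS2 were used with the hg19 build, with no versions given in the labels. The authors deposited 1 pooled FPKM value per group and locus. The authors also deposited a log2 fold change, a p-value and a q-value per locus, and the knockout table's p and q are not printed, since it compares 1 library with 1. The authors deposited merged peak lists with a score per peak. Nothing states that the hairpin replicates were separate cultures, so their p-values measure the spread between libraries, which may be technical.

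Fold changes were read as deposited, as the first named group over its control. They were computed from FPKM only where a value was added to both groups. A locus with several symbols was counted once. A peak lay at a promoter with its midpoint within 1000 bp of a transcript start, and in a body with at least 1 base of overlap. Starts in the tables were counted from 0 and were raised by 1. Members, gene lists and motifs were chosen with earlier results of these data known. Named genes were all those past q 0.05, those with the largest changes among loci of at least 1 FPKM in either group (8 per direction for shZBTB24, 6 for FLAG-ZBTB24 and 10 for each knockout label), those listed in 3 comparisons, those with a ZBTB24 promoter peak, and the 5 with the most bases covered by DNMT3B peaks. Others named were chosen after their values were seen. A planned grouping by KRAB domain and finger number was not run, because no protein sequences were used here. Steps were tested on simulated data. Python 3.11.15, pandas 2.3.3, numpy 2.4.6 and matplotlib 3.10.9 were used.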

Additional observations from a re-analysis of the deposited data

How the results depend on the processing

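Of 41 alternative values, 33 stayed within the limits set for the same result and 8 moved. A change of direction was looked for in medians only, and none was found. Most of these medians could not have changed direction. Each knockout label lists a single direction, and adding FPKM to both values cannot reverse a ratio. For shZBTB24, the 5 loci past the threshold became 39 at an unadjusted p under 0.05 and 12 at a q under 0.1. For the DNMT3B knockout, the 9 loci became 24 at a log2 fold change of at least 1, the limit of the table, 4 at one of at least 3, and 3 with 1 FPKM added to both values, which also took the median log2 fold change of 1.77 to 1.05. Keeping the upper 50% of each peak list by score left 1 gene with a ZBTB24 promoter peak, of 3, and 8 with a DNMT3B peak in the body, of 16. No paired analysis was possible because the tables hold 1 pooled value per group and none per library, and leaving out each replicate in turn was not run for the same reason. The depth behind each value is unknown, so low FPKM values carry an error that cannot be given. Loci not listed may be unchanged, filtered or untested.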

Other observations

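Other zinc finger families were listed in small numbers. Of 47 ZBTB names, 6 loci were listed for shZBTB24, 1 higher and 5 lower than in shNT cells, and none passed the adjusted threshold of the authors' test. All 6 had an unadjusted p under 0.05, as did 97.0% of all loci in that table. Of 22 ZFP names, 2 were listed for shZBTB24, 1 in each direction, and 5 for FLAG-ZBTB24, 2 higher and 3 lower than in FLAG-only lines, none of them past it and 1 in each direction at an unadjusted p under 0.05 in either comparison. Of 22 ZSCAN names, 1 was listed for shZBTB24, and of 7 ZKSCAN names none was listed in any comparison.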
